A study of Mus musculus with 474 samples.

Results

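The results that follow concern 10 genes, chosen by name as parts of the route from the insulin receptor to glucose uptake: Slc2a4, Slc2a1, Hk2, Insr, Irs1, Irs2, Pik3r1, Akt2, Tbc1d4 and Tbc1d1. All 10 were found among the 20612 genes of the deposited tables, and all 10 were among the 18823 genes that passed the filter on low counts. Their RNA was measured by RNA sequencing in skeletal muscle of Diversity Outbred mice, taken from the gastrocnemius according to the study's methods. These are outbred animals descended from several inbred founder strains, so each carries its own mix of founder alleles. Every animal was fed the high-fat, high-sugar diet, labelled as 45 percent fat, from shortly after weaning until tissue collection in adulthood, so no group on another diet stands beside them. The animals fell into 10 groups by sex and by a number in the sample title (17, 18, 19, 21 or 23) that was read as the outbreeding generation, with 45 to 50 animals in each. The study's methods name only some of these generations and leave out the lowest and the highest number, so that this reading rests on the titles.

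Insulin binds a receptor tyrosine kinase, which phosphorylates adaptor proteins. The adaptors recruit phosphatidylinositol 3-kinase, and its lipid product leads to activation of the kinase AKT. AKT in turn inactivates a pair of Rab GTPase-activating proteins that hold vesicles carrying the glucose transporter GLUT4 inside the muscle fibre, so that GLUT4 reaches the surface and the sugar entering is trapped by hexokinase. Most of this control acts on proteins that are already present, through phosphorylation and transport, and RNA levels report none of it.

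Total estimated counts ran from 35.9 M to 165.7 M per library (median 79.3 M, M being the prefix mega). The tissue carried the RNA of fast muscle fibres at high level: 12 fast-fibre genes together held 109930 to 204860 CPM (counts scaled to the size of the library), with medians of 160958 in females and 162318 in males. In 5 libraries, 3 labelled female and 2 labelled male, Xist and Y-linked RNA went against or lay between the sex labels. Values that change without them are given below. In bulk muscle, fewer cells of a type and less RNA per cell cannot be told apart.

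Slc2a4, which encodes the insulin-responsive transporter GLUT4, was the most abundant of the genes per unit of length. Its median level over all animals was 112.8 CPM per kilobase of merged exons, against 60.05 for Hk2, 24.9 for Akt2, 14.5 for Tbc1d1, 11.8 for Irs1, 9.55 for Irs2, 8.19 for Insr, 6.21 for Tbc1d4, 5.04 for Pik3r1 and 1.94 for Slc2a1. The top and bottom of this order were clear within animals. Slc2a4 was above Hk2 in 99.4% of animals, and Hk2 was above Akt2, and Pik3r1 above Slc2a1, in every animal. In the middle the neighbours were mixed: Tbc1d1 was above Irs1 in 64.3% of animals, Irs1 above Irs2 in 61.6%, Irs2 above Insr in 63.1% and Tbc1d4 above Pik3r1 in 64.8%. Dividing by the longest coding transcript in place of the merged exons moved Insr from place 7 to place 5, ahead of Irs1 and Irs2, and left the other places in order.

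The transporters and the hexokinase differed little between the sexes. Slc2a4 (chromosome 11, 69942539 to 69948188, minus strand, build GRCm38) ran from 233.01 CPM through a median of 405.5 to 543.3 in females, and from 236.6 through 382.8 to 526.1 in males. The ranges overlapped almost wholly, and the fitted level was lower in males by a small step (log2 difference, male minus female, -0.09, SE 0.015, adjusted p = 1.02e-08 by edgeR's quasi-likelihood test over all genes). Slc2a1 (chromosome 4, 119108711 to 119137983, plus strand) encodes GLUT1, the transporter that many cell types use for basal uptake. It ran from 3.81 through 6.97 to 18.3 CPM in females and from 3.18 through 6.57 to 11.9 in males, and was also slightly lower in males (log2 difference -0.08, SE 0.030, adjusted p = 0.0214). It did not pass with the library block (adjusted p = 0.0552) or the scores of 8 cell-type marker lists (adjusted p = 0.456) in the model. Per kilobase, Slc2a4 exceeded Slc2a1 by a median of 58.1 times, and by 22.7 to 128.6 times across animals.

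Hk2 (chromosome 6, 82725025 to 82774454, minus strand) encodes hexokinase 2, which phosphorylates the glucose that enters muscle. It ran from 189.7 through 341.2 to 1071 CPM in females and from 232.5 through 382.4 to 900.7 in males. The gene was higher in males (log2 difference 0.17, SE 0.027, adjusted p = 2.19e-09), with the same sign in 5 of 5 generations. An antisense gene, Gm17034, overlaps it and is in the tables. Whether the libraries kept strand is not given in the sources used here, so reads of the pair could not be told apart.

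Upstream sequences were available in the RefSeq promoter table (GRCm38.p6) for 8 of the 10 genes; Slc2a4 and Insr have no entry. The 250 bases before the start site were searched on both strands for the GC box (GGGCGG), the CCAAT box (CCAAT), the E-box (CANNTG) and its form CACGTG, the cyclic AMP response element (TGACGTCA) and its shorter form TGACG, the hypoxia core (ACGTG), the forkhead site (GTAAACA) and the TATA box (TATAAA). The form CACGTG is also an E-box and holds the hypoxia core on both strands. Slc2a1 and Hk2 are shown because, of all 45 pairs of the 10 genes, they had the highest Pearson's r from animal to animal; by Spearman's rho Irs1 and Irs2 came first. Capitals mark the GC box, the CCAAT box and CACGTG. The Slc2a1 stretch (chr4:119108495-119108710, plus strand) stops 35 bases before the RefSeq start, where the annotated gene begins, and the Hk2 stretch is chr6:82774455-82774704, minus strand.
Slc2a1: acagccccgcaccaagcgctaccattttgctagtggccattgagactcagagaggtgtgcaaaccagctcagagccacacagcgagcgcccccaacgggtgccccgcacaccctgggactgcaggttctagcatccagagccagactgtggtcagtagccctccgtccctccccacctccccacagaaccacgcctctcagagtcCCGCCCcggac
Hk2: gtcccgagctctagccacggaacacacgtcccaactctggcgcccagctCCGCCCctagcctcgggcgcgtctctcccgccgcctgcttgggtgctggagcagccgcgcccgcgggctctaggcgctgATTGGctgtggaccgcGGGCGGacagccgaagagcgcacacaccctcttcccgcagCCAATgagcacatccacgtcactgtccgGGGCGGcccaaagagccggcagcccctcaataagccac
The GC box was found in both, at 2 places within the 250 bases of Slc2a1 (1 of them past the end of the stretch shown) and at 3 in Hk2, which also held 2 CCAAT boxes. Both windows also held the hypoxia core, at 1 place in Slc2a1, which runs past the end of the stretch shown, and at 2 in Hk2. Of all 32851 windows of this length, 32.7% hold a GC box, 33.8% a CCAAT box and 16.6% a hypoxia core, so that each of these matches is common.

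Insr (chromosome 8, 3122061 to 3279617, minus strand), the insulin receptor, varied less among animals than either adaptor. It ran from 68.7 through 111.2 to 186.8 CPM in females and from 52.1 through 113.8 to 164.8 in males, and did not pass the test between the sexes (log2 difference 0.03, SE 0.019, adjusted p = 0.168). The adaptors behaved differently. Irs1 (chromosome 1, 82233101 to 82291416, minus strand), a docking protein for the receptor, ran from 48.1 through 125.7 to 286.3 CPM in females and from 33.5 through 91.9 to 312.8 in males. Irs2 (chromosome 8, 10984681 to 11008458, minus strand), the second adaptor, ran from 13.1 through 50.3 to 231.5 CPM in females and from 21.6 through 76.6 to 232.9 in males.

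The adaptors thus moved in opposite directions between the sexes. Irs1 was lower in males (log2 difference -0.29, SE 0.054, adjusted p = 9.42e-07) and Irs2 was higher (0.54, SE 0.064, adjusted p = 4.35e-15), each with its sign in 5 of 5 generations and 5 of 5 blocks of library numbers. Per kilobase, the ratio of Irs1 to Irs2 had a median of 1.63 in females and 0.891 in males. It was over 1 in 82.98% of females and in 40.6% of males. Each adaptor overlaps a gene on the opposite strand that is in the tables, Gm9747 for Irs1 and 9530052E02Rik for Irs2, and the same limit on strand applies.

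The sequences before the adaptors' start sites are shown because the genes differed in sign between the sexes and yet varied together among animals. The Irs1 stretch is chr1:82291440-82291689, minus strand, and the Irs2 stretch is chr8:11008930-11009179, minus strand.
Irs1: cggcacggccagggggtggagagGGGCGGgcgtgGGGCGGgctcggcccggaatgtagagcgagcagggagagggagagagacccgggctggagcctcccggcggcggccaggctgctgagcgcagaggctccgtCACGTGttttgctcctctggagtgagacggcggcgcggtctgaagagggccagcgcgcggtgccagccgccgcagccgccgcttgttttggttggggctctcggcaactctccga
Irs2: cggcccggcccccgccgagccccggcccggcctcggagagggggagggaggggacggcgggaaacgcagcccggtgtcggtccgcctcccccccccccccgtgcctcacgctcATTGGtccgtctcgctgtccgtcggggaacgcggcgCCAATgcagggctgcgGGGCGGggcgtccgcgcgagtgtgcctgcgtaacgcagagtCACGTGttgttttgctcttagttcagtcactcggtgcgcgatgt
Both windows hold 1 copy of CACGTG, at position -115 from the RefSeq start of Irs1 and at -44 from that of Irs2. These RefSeq starts lie upstream of the annotated genes given above. Of all windows, 6.02% hold CACGTG. GC boxes were found at 2 places in Irs1 and at 1 in Irs2, which also held 2 CCAAT boxes. Base composition was alike, at 72.4% and 72.8% G or C against a median of 52.4% over all windows.

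Pik3r1 (chromosome 13, 101680563 to 101768217, minus strand) encodes the p85 alpha regulatory subunit of phosphatidylinositol 3-kinase. It ran from 27.1 through 61.2 to 159.6 CPM in females and from 25.4 through 42.97 to 95.3 in males, and its level was lower in males by 0.53 on the log2 scale (log2 difference -0.53, SE 0.037, adjusted p = 2.44e-37). Gm36638, a gene model of the tables, overlaps it on the same strand, so that its reads may be split between them. Akt2 (chromosome 7, 27591552 to 27640826, plus strand), the AKT form most tied to glucose uptake, ran from 131.3 through 178.8 to 272.7 CPM in females and from 104.8 through 176.9 to 246.03 in males. No difference between the sexes passed the test for it (log2 difference -0.02, SE 0.017, adjusted p = 0.421).

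The Rab GTPase-activating proteins at the end of the pathway were unequal. Tbc1d1 (chromosome 5, 64156305 to 64351486, plus strand) ran from 52.96 through 134.7 to 335.4 CPM in females and from 33.2 through 84.4 to 211.8 in males, and was lower in males by the widest margin of the 10 genes in this test (log2 difference -0.66, SE 0.043, adjusted p = 1.43e-41). It overlaps 4 genes of the tables, Gm43721 and Gm6044 on the same strand and Gm15824 and Gm15823 on the opposite one, and how reads were shared with them was not tested. Tbc1d4 (chromosome 14, 101442360 to 101609191, minus strand), also known as AS160, ran from 15.03 through 48.9 to 117.6 CPM in females and from 15.8 through 46.8 to 95.9 in males. Its log2 difference was -0.11 (SE 0.046, adjusted p = 0.0415). It did not pass without the 5 libraries whose RNA went against or lay between the sex labels (adjusted p = 0.0518). Nor did it pass by limma on the variance-stabilised scale (adjusted p = 0.104). The ratio of Tbc1d4 to Tbc1d1 per kilobase had a median of 0.345 in females and 0.516 in males.

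**Figure D1:**
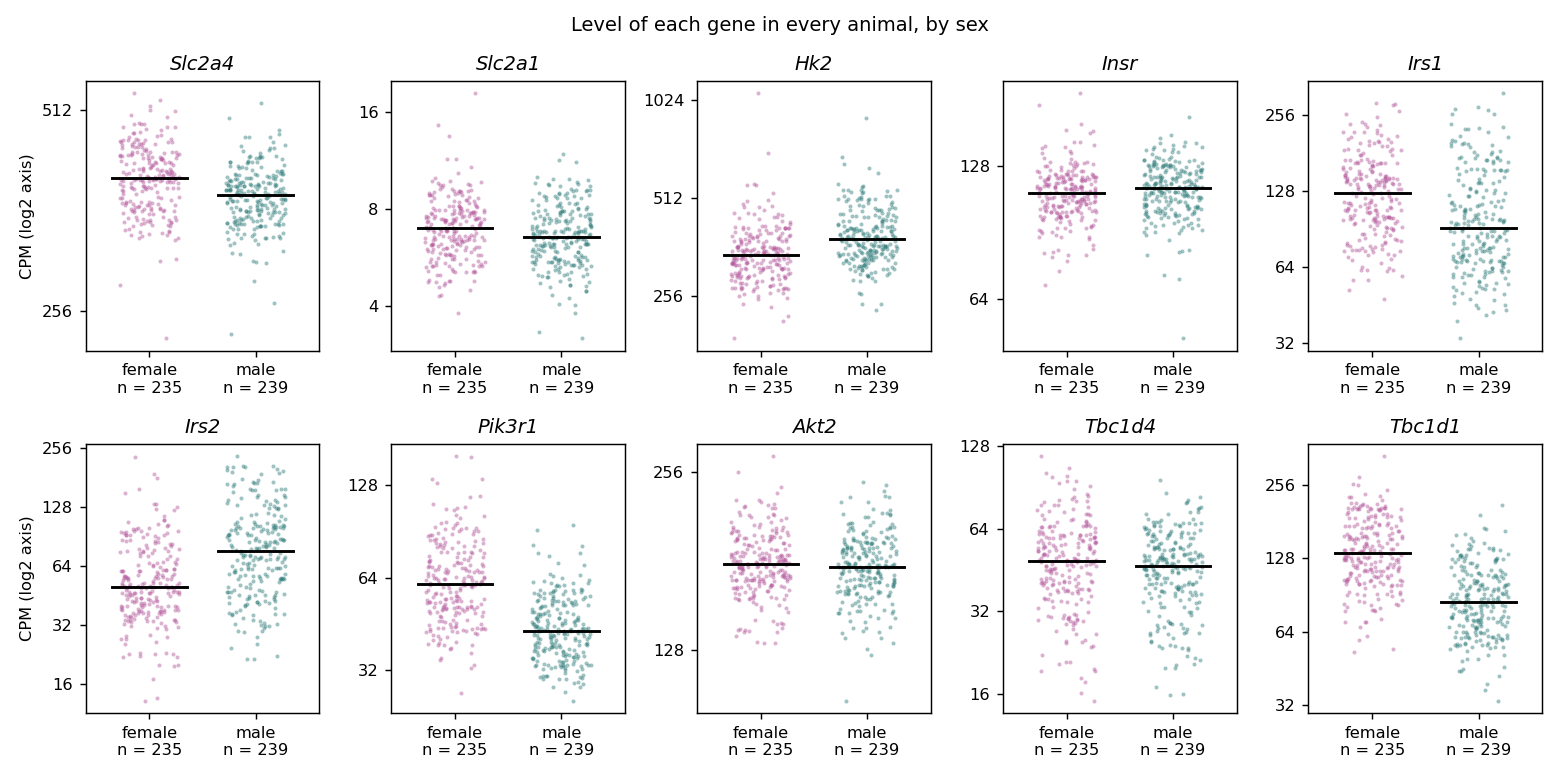
Level of each of the 10 genes in CPM on a log2 axis, with a point for every animal (spread sideways at random) and a black line at the median of each sex. The sexes overlap for every gene, with the medians farthest apart for Tbc1d1, Pik3r1, Irs1 and Irs2.

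In all, 8 of the 10 genes passed the test between the sexes, 2 higher and 6 lower in males. This count has to be read against the whole table, in which 55% of genes passed, 24.4% higher and 30.6% lower in males. Sex took 33.02% of the variance of Tbc1d1 across animals on the variance-stabilised scale, 28.4% for Pik3r1, 11.6% for Irs2, 8.56% for Hk2, 7.47% for Irs1 and 6.82% for Slc2a4. In the fits of each generation alone, 20.7% to 25.4% of all genes passed. Tbc1d1 (log2 difference from -0.79 to -0.59) and Pik3r1 (from -0.62 to -0.37) passed in 5 of 5. Irs2 (from 0.33 to 0.78) and Slc2a4 (from -0.11 to -0.02) passed in 4, Hk2 (from 0.06 to 0.30) in 3 and Irs1 (from -0.40 to -0.20) in 1. Slc2a1 and Tbc1d4 passed in none, and Tbc1d4 had the other sign in generation 17 (0.08). No gene of the 10 passed the test that the sex difference varied between generations, where Hk2 had the lowest unadjusted p (0.0328, adjusted p = 0.737) and 0.531% of all genes passed; by limma none of the 10 passed either.

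**Figure D2:**
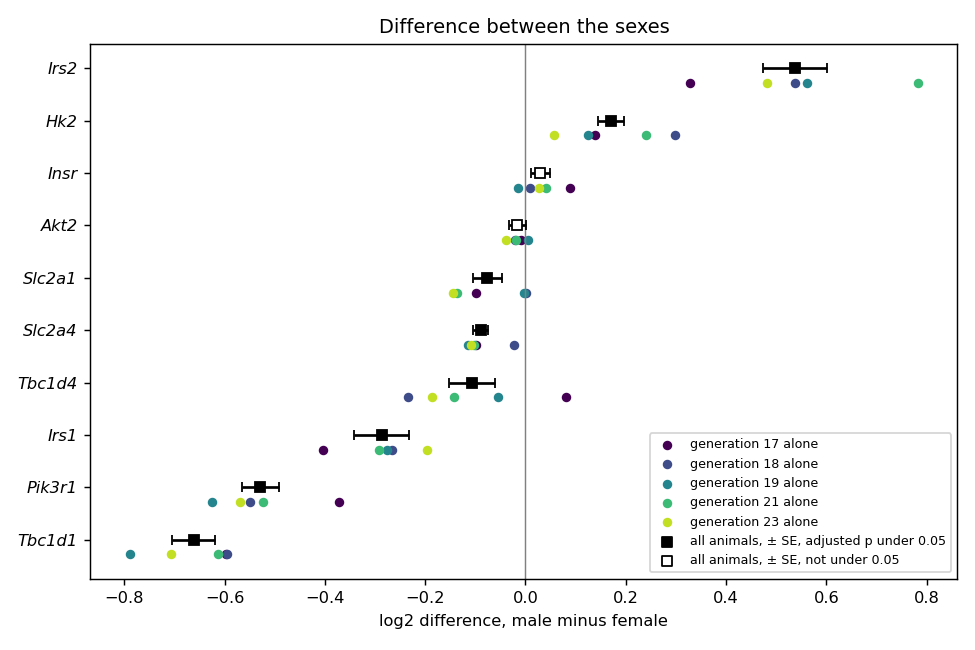
Log2 difference between the sexes (male minus female) for the 10 genes, with squares for the fit over all animals (bars are ± SE; filled where adjusted p was under 0.05) and coloured points for each generation fitted alone. Tbc1d1, Pik3r1 and Irs1 lie to the left of 0 and Irs2 and Hk2 to the right in all 5 generations.

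Across the 10 groups of sex and generation the medians spread most for Irs2, from 43.2 CPM in females of generation 17 to 93.4 in males of generation 21. Tbc1d1 ran from 78.6 CPM in males of generation 19 to 149.5 in females of generation 17, Irs1 from 73.8 in males of generation 17 to 136.3 in females of generation 19, and Pik3r1 from 38.7 in males of generation 18 to 68.8 in females of generation 19. Slc2a4 covered a narrow range, from 368.1 CPM in males of generation 19 to 414.9 in females of generation 17, as did Insr (109.3 to 116.9), Slc2a1 (6.39 to 7.19), Akt2 (167.95 to 183.6), Tbc1d4 (40.6 to 51.8) and Hk2 (330.8 to 406.6). Groups that were neighbours in these orders lay within the smaller of their SDs in 9 of 9 cases for each gene except Tbc1d1, where it was 8 of 9.

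Markers of fibre types and other cells were set against sex as well, where 55% of all genes passed, 24.4% higher and 30.6% lower in males, so that counts near these shares are not particular to a list. All 9 slow-fibre genes were lower in males, and their summed level ran from 633.6 through a median of 3714 to 10003 CPM in females and from 895.2 through 2545 to 8289 in males. Of 8 adipocyte genes 7 were lower in males and 1 was higher, with summed medians of 101.4 CPM in females (13.4 to 654.4) and 68.6 in males (8.17 to 271.996). All 8 endothelial genes were higher in males, by small amounts (summed medians 309.3 and 330.6 CPM). Of 12 fast-fibre genes 6 were higher and 4 lower in males, of 8 fibroblast genes 2 were higher and 5 lower, of 6 Schwann cell genes 2 were lower, of 5 erythroid genes 3 were higher, and none of 8 macrophage genes passed. No gene of these lists had a median of 0 in either sex. With the scores of 8 marker lists in the model, the difference was -0.69 for Tbc1d1, -0.47 for Pik3r1, -0.27 for Irs1, 0.58 for Irs2, -0.13 for Slc2a4 and 0.10 for Hk2, all 6 still past the threshold. Slc2a1 (-0.03, adjusted p = 0.456) and Tbc1d4 (-0.07, adjusted p = 0.362) no longer passed, and Akt2 did (-0.05, adjusted p = 0.0237).

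Between generations, 3 of the 10 genes passed the test, against 7.56% of all genes: Irs2 (largest minus smallest fitted level 0.63 on the log2 scale, adjusted p = 7.64e-07), Irs1 (0.36, adjusted p = 0.00641) and Pik3r1 (0.21, adjusted p = 0.0256). In females alone none of the 10 passed, and 2 had an unadjusted p under 0.05 (Irs2, adjusted p = 0.136, and Pik3r1, adjusted p = 0.197). In males alone 2 passed, Irs2 and Hk2. Of all genes 2.89% passed in females alone and 2.74% in males alone, and none of the 10 passed the interaction test of sex with generation. The adaptors shared the generation with the lowest level. Irs2 had a median of 46.6 CPM in generation 17 and of 62.3 to 67.4 in the other four, and Irs1 had 90.2 CPM in generation 17 and 99.6 to 119.2 in the others. Pik3r1 had another order, with its lowest median in generation 18 (45.9 CPM) and its highest in generation 19 (54.6). Leaving out generation 17, an alternative chosen after its levels were seen, left no gene of the 10 past the threshold of edgeR's test (Irs2 0.13, adjusted p = 0.866; Irs1 0.16, adjusted p = 0.771; Pik3r1 0.21, adjusted p = 0.0667), with 1.51% of all genes passing. In that fit Pik3r1 and 2 others of the 10 (Akt2 and Hk2) had unadjusted p under 0.05.

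**Figure D3:**
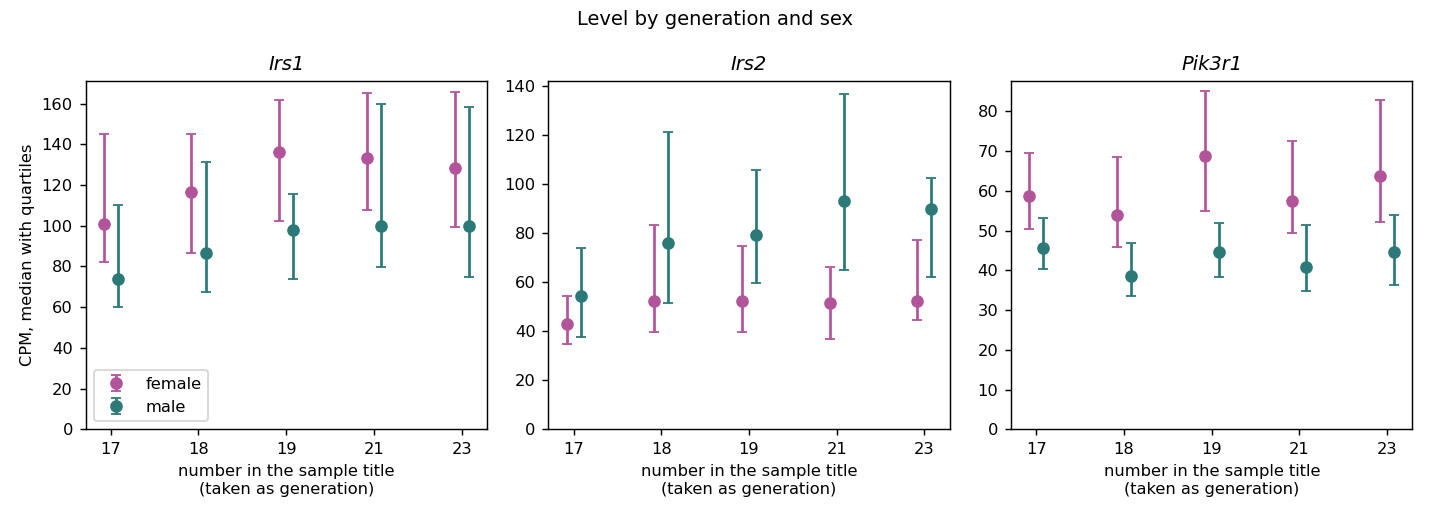
Median level in CPM of Irs1, Irs2 and Pik3r1 by generation, with bars from the lower to the upper quartile of animals, females and males apart. Irs1 and Irs2 are lowest in generation 17 in both sexes, with medians of 43.2 CPM for Irs2 in females and 73.8 for Irs1 in males of that generation.

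Other genes also differed between generations. Of 13 immediate-early genes, whose RNA rises within minutes of a stimulus, 12 passed the test between generations, each with its lowest median in generation 17. Generation 18 was almost as low for the leading ones: Fos had medians of 9.50 CPM in generation 17, 12.5 in generation 18 and 37.3 to 50.2 in the other three. Egr1 had 6.91 and 9.03 CPM in generations 17 and 18, and 17.9 to 34.9 in the others. Of 12 genes known as FOXO-responsive or induced by fasting, 6 passed, each with its highest median in generation 17, beside 7.56% of all genes, such as Pdk4 (1745 CPM there and 1114 in generation 23) and Foxo1 (65.7 there and 43.5 in generation 18). Without generation 17, 11 of the 12 immediate-early genes still passed, while the 6 FOXO-responsive genes had adjusted p from 0.154 to 0.978, beside 1.51% of all genes passing. Of 7 glucocorticoid-responsive genes 2 passed between generations (Fkbp5 and Zbtb16, both highest in generation 17), and of 14 clock genes 1 did (Ciart, lowest in generation 17). None of these 3 passed without generation 17 (adjusted p from 0.298 to 0.798). The part of these differences in the levels of Irs1 and Irs2 was not tested.

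Blocks of consecutive library numbers, which may be preparation plates although the labels do not say so, took part of the variation in the least variable genes. Here 4 of the 10 passed, against 47.4% of all genes: Slc2a4 (largest minus smallest 0.17 on the log2 scale, adjusted p = 4.01e-13), Slc2a1 (0.23, adjusted p = 4.45e-06), Insr (0.12, adjusted p = 2.01e-04) and Akt2 (0.08, adjusted p = 0.0254). Median Slc2a4 was 373.5 CPM in the first block, 427.4 in the second and 383.7 to 390.3 in the other three. For Slc2a4 the block took 10.04% of the variance across animals, more than sex did. For Irs2 and Irs1 it took less than generation, which held 7.46% and 4.23%. With the block in the model, the sex difference of Slc2a4 was -0.08 (adjusted p = 5.68e-08) and that of Slc2a1 was -0.06 and no longer passed (adjusted p = 0.0552).

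The genes also differed in how far animals varied. After sex and generation were taken out, the SD across animals on the variance-stabilised scale was 0.672 for Irs2, 0.575 for Irs1, 0.501 for Tbc1d4, 0.462 for Tbc1d1 and 0.383 for Pik3r1. It was 0.279 for Hk2, 0.2503 for Slc2a1, 0.199 for Insr, 0.179 for Akt2 and 0.154 for Slc2a4. The median of all genes tested was 0.204. Irs2 thus stood at percentile 97.3 and Irs1 at percentile 95.9 of all genes. The spread on this scale depends on the level, which for Slc2a4 stood at percentile 98.8 of all genes, so that its low SD cannot be read as particular to it. Between the sexes, Pik3r1 alone of the 10 passed limma's test on absolute deviations from the group median, being less variable in males (mean deviation 0.337 in females and 0.260 in males, adjusted p = 0.0125), against 5.55% of all genes, 1.75% more variable and 3.80% less variable in males. Irs1 just missed it, with 0.412 in females and 0.508 in males (adjusted p = 0.0509).

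Pairs of genes were compared across all animals on the same residuals, with 100000 permutations for each of the 45 pairs. Of these, 19 passed an adjusted p of 0.05, 16 positive and 3 negative, and 21.7% of all pairs of tested genes had a correlation at least as large in size as the smallest of the 19 (0.127). The correlations were weak: 3 pairs reached 0.3 in size. Slc2a1 and Hk2 led, with r = 0.373 (rho = 0.297), followed by Irs1 and Irs2 with r = 0.355 (rho = 0.338) and Slc2a4 and Hk2 with r = 0.318 (rho = 0.304). All 3 had the smallest unadjusted p these permutations could give, 1e-05 (adjusted p = 5.625e-05). Each had the same sign in both sexes and in 5 of 5 library blocks. Animals are related through the founders, which neither the residuals nor the permutations took into account. Libraries of a block may share preparation. With block and total count also taken out, r was 0.374, 0.360 and 0.324 in that order.

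For Slc2a1 and Hk2, the correlation ranged from 0.246 to 0.627 between blocks and was 0.312 without the 2 animals farthest from the median of Slc2a1. Irs1 and Irs2 had r = 0.239 in females and 0.441 in males, a difference that was not tested, and 0.222 to 0.460 across blocks. Slc2a4 and Hk2 had r = 0.346 in females and 0.269 in males. Below these came Slc2a4 with Akt2 (r = 0.255), Hk2 with Irs2 (0.235), Insr with Tbc1d4 (0.235), Pik3r1 with Tbc1d1 (0.226), Hk2 with Tbc1d1 (0.225) and Pik3r1 with Tbc1d4 (0.210). The 3 negative pairs were Hk2 with Irs1 (r = -0.172), Akt2 with Tbc1d1 (-0.168) and the GTPase-activating proteins Tbc1d4 and Tbc1d1 with each other (-0.141). Insr was correlated with neither adaptor past the threshold (0.037 with Irs1, 0.101 with Irs2).

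The genes did not move as a unit. The first component of the 10 held 18.04% of their variance, the second 14.4% and the third 13.7%. Taking out sex and generation together mattered for some pairs, and neither was taken out alone. With nothing taken out, Pik3r1 and Tbc1d1, both lower in males, had r = 0.458 in place of 0.226, and Irs2 and Tbc1d1, which differ in opposite directions between the sexes, had r = -0.108 in place of 0.165. Of the 19 pairs, 18 had the same sign in females and males, the exception being Insr with Pik3r1 (0.2498 in females and -0.029 in males), and 13 had the same sign in every block.

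**Figure D4:**
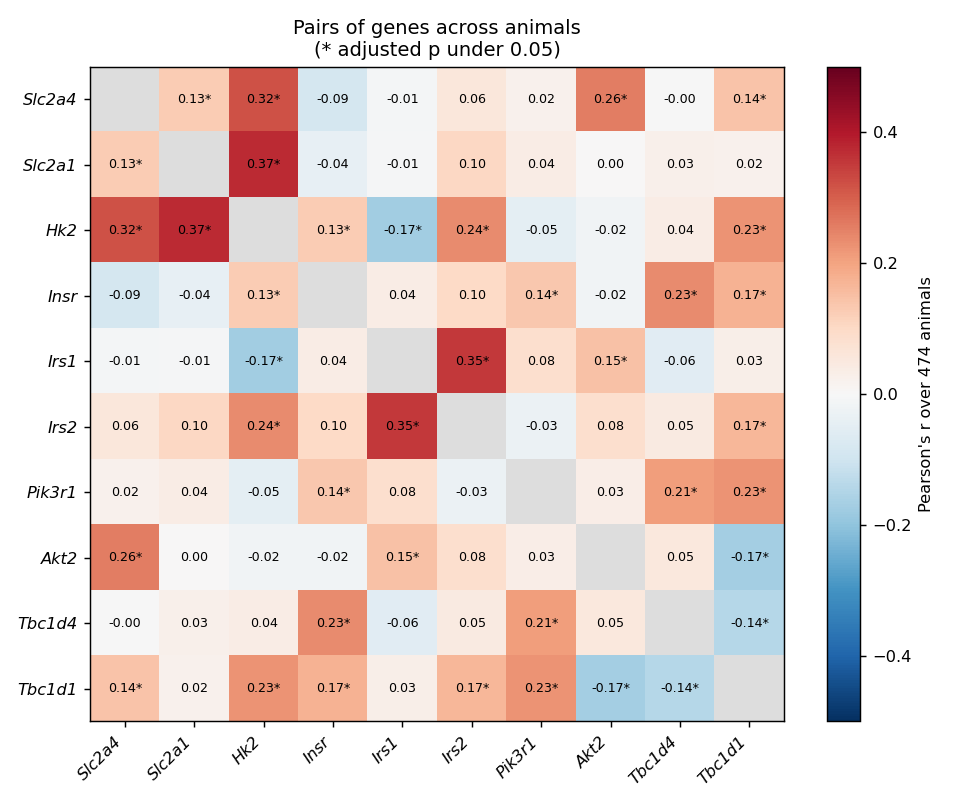
Pearson's r over all animals for every pair of the 10 genes, after sex and generation were taken out; red is positive, blue negative, and an asterisk marks an adjusted p under 0.05. The darkest cells are Slc2a1 with Hk2 (0.37), Irs1 with Irs2 (0.35) and Slc2a4 with Hk2 (0.32).

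Each gene was also set against scores of 8 cell-type and 6 state lists, the mean standardised residual of the genes of a list. Of 140 gene-by-list pairs 59 passed, 42 positive and 17 negative, and 30.5% of all genes by lists had an r at least as large in size as the smallest of the 59. Irs2 had the highest value, 0.436 with the immediate-early score (rho = 0.442; 0.463 in females, 0.412 in males), then 0.409 with the glucocorticoid-responsive score and 0.360 with the FOXO-responsive score. Irs1, although correlated with Irs2, passed with 1 list only, the clock genes (r = -0.149). Pik3r1 went with the FOXO-responsive score (0.350) and the glucocorticoid-responsive score (0.313), and against the fast-fibre (-0.245) and glycolysis (-0.253) scores. It also passed with the macrophage (0.215), adipocyte (0.210) and clock (-0.237) scores.

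Slc2a4 followed the glycolysis score (r = 0.424) and the fast-fibre score (0.232) and ran against the adipocyte score (-0.281). Insr had the opposite sign with glycolysis (-0.328), as did Tbc1d4 (-0.252), whose highest value was with fatty acid oxidation (0.261). Slc2a1 was positive with the Schwann cell (0.269), slow-fibre (0.246), endothelial (0.241) and erythroid (0.202) scores and negative with the fast-fibre score (-0.212). The share of Slc2a1 RNA that came from cells other than muscle fibres was not tested. Hk2 also went with the endothelial score (0.275), and the correlation of Slc2a1 with Hk2 was 0.350 with the 8 marker scores taken out. Akt2 passed with the FOXO-responsive score (0.260). With the FOXO-responsive score 6 of the 10 genes passed, 6 with the glucocorticoid-responsive score and 6 with fatty acid oxidation, every one positive. Of all genes 30.1%, 31.4% and 28.7% had values as large in size, of either sign. By permutation of Spearman's rho, Slc2a4 (adjusted p = 0.183) and Akt2 (adjusted p = 0.0791) did not pass with fatty acid oxidation. Nor did Tbc1d4 with the FOXO-responsive score (adjusted p = 0.223), where Tbc1d1 passed (adjusted p = 0.0067). Also 6 of the 10 passed with the glycolysis score (3 positive, 3 negative) and 6 with the fast-fibre score (2 positive, 4 negative). Here 53.8% and 51.1% of all genes had values as large in size, of either sign. For the 6 genes that passed with fatty acid oxidation r was 0.186 to 0.335 in females and 0.018 to 0.199 in males, a difference that was not tested.

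**Figure D5:**
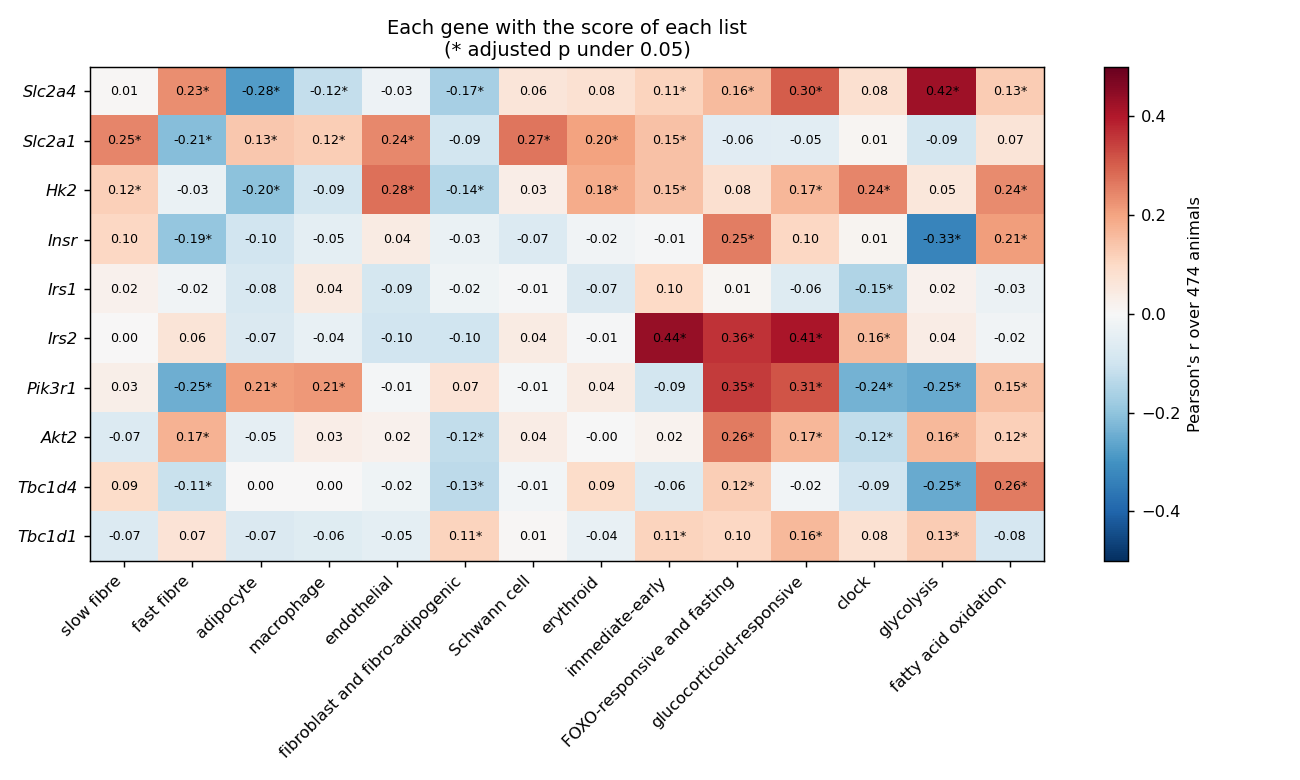
Pearson's r over all animals of each of the 10 genes with the score of each of 8 cell-type and 6 state lists, after sex and generation were taken out; an asterisk marks an adjusted p under 0.05 over 140 pairs. Irs2 with immediate-early genes (0.44), Slc2a4 with glycolysis (0.42) and Insr with glycolysis (-0.33) are among the strongest.

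The genes most alike each member across all animals are given as a description, since they are the highest of all genes tested. Irs2 had the closest companions: Slc20a1, a phosphate transporter (r = 0.686), Flcn, which encodes folliculin (0.678), and Nr4a3, a nuclear receptor (0.674), with Sept4 the least alike (-0.504). Irs1 was nearest to Ikzf4 (0.626), Socs2 (0.564) and Mad2l1bp (0.563), and farthest from Fam214a (-0.422). Pik3r1 was nearest to Chd6 (0.590), Fkbp5 (0.554) and Il6ra (0.525), and farthest from Dgkz (-0.450). Insr was nearest to Gsk3b (0.538), the glycogen synthase kinase, Rb1cc1 (0.517) and Ranbp2 (0.516), and farthest from Plpp7 (-0.457).

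Slc2a4 was nearest to Tmem38a (0.564), a channel of the sarcoplasmic reticulum, Slc25a4 (0.537), the ADP/ATP carrier of muscle mitochondria, and Sdhc (0.528), a subunit of succinate dehydrogenase. Its least alike gene was Atl3 (-0.451). Slc2a1 was nearest to Lmna (0.436), Slc12a4 (0.423) and Slc22a4 (0.415), with Cbwd1 (-0.328) the farthest. For Hk2 the nearest were Snai3 (0.568), Ern1 (0.512) and Slc25a33 (0.491), and the farthest was Pml (-0.338). Tbc1d1 was nearest to Rps6ka5 (0.473), Mylk4 (0.462) and Lonrf3 (0.428), and Plcd4 was the least alike (-0.474).

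For 2 genes the most alike gene lay on the same chromosome nearby. Akt2 was nearest to Eif3k (0.521), which starts 1.38 megabases away, and to Hipk4 (0.491), 0.0683 megabases away, then to Hsf1 (0.460), with Hif1a the least alike (-0.432). Tbc1d4 was nearest to Lmo7 (0.383), 0.288 megabases away, then to Klhl24 (0.355) and Acadsb (0.345), with Gm45105 the least alike (-0.328). Tbc1d4 had few companions: 0.0638% of all genes reached 0.3 in size with it, against 5.72% with Slc2a4 and 5.31% with Insr. Over all pairs of genes the share was 3.67%.

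Around the 10 genes, 92 further genes of the pathway from 7 lists were tested, and 65 (70.7%) passed between the sexes. Of these, 38 were higher and 27 lower in males. Of all genes 55% passed, 24.4% higher and 30.6% lower, so that counts near these shares are not particular to a list. Among the receptor's adaptors and brakes 13 of 15 passed, 6 higher and 7 lower, with a median log2 difference of -0.03 against -0.01 over all genes. Grb10, an adaptor that dampens insulin signalling, was lower in males (medians 58.3 CPM in females and 41.3 in males, log2 difference -0.47, SE 0.021, adjusted p = 8.38e-74), as were Enpp1 (-0.27) and Sh2b2 (-0.21, and -0.12 on the variance-stabilised scale). The cytokine-signalling brakes Socs1 (2.17) and Socs3 (1.86) and the docking protein Gab1 (0.29) were higher. Medians of these brakes differed far less: those of Socs3 were 1.92 CPM in females and 2.50 in males, while 23 males exceeded the highest female (24.3 CPM) and the highest male held 132.8. On the variance-stabilised scale their differences were 0.38 for Socs1 and 0.66 for Socs3, both still past the threshold by limma's test.

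Of 9 genes of PI 3-kinase and the lipid phosphatases 8 passed (3 higher, 5 lower, median -0.04), beside 55% of all genes (24.4% higher, 30.6% lower). Pik3r3 (0.25), a further regulatory subunit, had the opposite sign to Pik3r1, and Inppl1 (0.07) was also higher in males. Inpp5k (-0.11), Pik3ca (-0.10) and Pik3r2 (-0.08) were lower. Among AKT, its activators and its targets 11 of 21 passed (6 higher, 5 lower, median -0.01), near the share over all genes. Foxo3, a transcription factor that AKT holds out of the nucleus, was lower in males (medians 51.4 CPM in females and 37.3 in males, log2 difference -0.50, SE 0.026, adjusted p = 1.27e-57). Foxo1 was lower too (-0.25), while Eif4ebp1 (0.27), Rictor (0.21) and Phlpp1 (0.10) were higher, with Phlpp1 at 0.05 (adjusted p = 0.0311) once the marker scores were in the model. Pde3b passed as lower (-0.15), yet its median was 6.70 CPM in females and 6.87 in males, it did not pass by limma on the variance-stabilised scale (-0.06, adjusted p = 0.356), and with the marker scores in the model it was higher in males (0.29).

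The vesicle traffic list had 17 of 22 past the threshold, 12 higher and 5 lower in males, with a median of 0.04. Of all genes 55% passed, 24.4% higher and 30.6% lower. Rab13 (0.40), the GLUT4 sorting receptor Sort1 (0.25) and the kinase Pak1 (0.19) led those that were higher, of which Pak1 did not pass with the marker scores in the model (0.11, adjusted p = 0.0756). Ralgapa2 (-0.23), Aspscr1 (-0.14), which encodes the GLUT4 tether TUG, and Snap23 (-0.13) led those that were lower. In the AMPK pathway 5 of 9 passed (3 higher, 2 lower, median 0.03), near the share over all genes. The difference of the muscle regulatory subunit Prkag3 was well above the others (medians 81.7 CPM in females and 119.9 in males, log2 difference 0.52, SE 0.034, adjusted p = 7.73e-42). Prkag2 (0.14) and Prkab2 (0.10) were higher as well, and Prkag1 (-0.12) and Prkaa1 (-0.06) were lower, although Prkaa1 did not pass with the marker scores in the model (-0.03, adjusted p = 0.173), where Prkag2 was at 0.21.

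Among the other glucose transporters and hexokinases, 7 of 8 listed genes were in the tables and 4 passed (2 higher, 2 lower, median 0.02). This was near the 55% of all genes. Slc2a3, which encodes GLUT3, had the widest separation of all the transporters: it ran from 0.505 through 3.53 to 16.3 CPM in females and from 0.799 through 13.3 to 30.8 in males. Its log2 difference was 1.78 (SE 0.075, adjusted p = 9.13e-81) and 82 males exceeded the highest female. Slc2a10 was higher (0.25, and 0.12 on the variance-stabilised scale), and Txnip (-0.14) and Slc2a12 (-0.08) were lower. The regulators of Slc2a4 transcription had 7 of 9 past the threshold, 6 higher and 1 lower in males (median 0.09). Of all genes 24.4% were higher and 30.6% lower. How the RNA of these regulators relates to that of Slc2a4 was not tested. Klf15 (-0.56) was the one that was lower, and Myod1 (0.28), Nr4a1 (0.24) and Ppargc1a (0.23) led the rest. With the marker scores in the model, Myod1 (0.15, adjusted p = 0.0750) and Ppargc1a (0.17, adjusted p = 0.0836) no longer passed.

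Between generations 15 of the 92 passed (16.3%, beside 7.56% of all genes). Socs3 (1.44), Socs1 (0.99), Nr4a1 (0.65), Foxo1 (0.58) and Ppargc1a (0.58) had the widest spans between fitted levels, followed by Arrdc4 (0.30), Txnip (0.24), Ptpn1 (0.23), Foxo3 (0.21), Pik3r3 (0.17), Camkk2 (0.14), Sort1 (0.14), Phlpp2 (0.10), Foxo4 (0.09) and Gsk3b (0.09). The medians of Socs3 (1.75 to 2.64 CPM) and Socs1 (0.152 to 0.196 CPM) differed far less between generations than these fitted levels. Generation 17 had the lowest median for 7 of the 15 and the highest for 6. Without generation 17 the threshold was passed by 2 of them, Nr4a1 (0.42, adjusted p = 8.15e-04) and Ppargc1a (0.58, adjusted p = 1.50e-05), beside 1.51% of all genes.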

How the data were processed

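Per the study's methods, RNA of frozen gastrocnemius went into polyA libraries that were sequenced as paired ends and aligned to a founder-aware transcriptome. Gene coordinates here are on GRCm38, a build that the paper's methods do not name. The authors made expected counts per gene with EMASE and deposited them unnormalised, with a variance-stabilised score from DESeq2 that was used here for spread and correlation. Mates of a pair were counted as separate reads, so counts are of read ends. Sex and generation come from the sample titles. The study's wave is not in the labels and was not used.

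Expected counts were rounded to whole numbers, filtered with filterByExpr (minimum count 10; 18823 of 20612 genes kept) and scaled by TMM. edgeR 4.0.16 quasi-likelihood F-tests compared sexes with generation as covariate, generations with sex as covariate, their interaction, and library blocks, with Benjamini-Hochberg adjustment over all genes tested and a threshold of 0.05. limma 3.58.1 tested absolute deviations, and limma and DESeq2 1.42.0 were alternatives. CPM are on the TMM scale. Pearson correlations used residuals after sex and generation, with two-sided permutation tests, and the adjustment ran over 45 pairs or 140 gene-by-list pairs. Lengths came from GENCODE M21, whose gene starts equal the deposited ones for 99.53% of genes. The fits were tested on simulated data.

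The 474 replicates (235 females, 239 males) are animals, each with 1 library. The genes and lists were chosen with earlier results of these data known. Named genes are the 10, up to 3 per pathway list and direction by size of the sex difference, every pathway gene passing between generations, and the 3 most and 1 least alike genes of each member. One gene that this rule names is not reported here.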

Additional observations from a re-analysis of the deposited data

How the results depend on the processing

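The sexes were compared with 8 of 10 genes past the threshold, and the count was 7 to 9 with DESeq2 and with other scalings, filters, covariates and measures. By generation alone it was 5, 4, 4, 5 and 4, and by library block alone 4, 4, 5, 5 and 5, with fewer animals in each fit. Of all genes 20.7% to 25.4% passed by generation alone and 19.6% to 28.6% by block alone, against 55% in the main fit. The sign changed for Slc2a1 in generation 18 (0.0014), for Insr in generation 19 (-0.016), block 1 (-0.025) and with total counts alone (-0.00091), for Akt2 in generation 19 (0.0047), block 1 (0.0060) and block 4 (0.044), and for Tbc1d4 in generation 17 (0.080) and block 2 (0.066). Tbc1d4 also missed the threshold without the 5 libraries whose RNA went against or lay between the sex labels (adjusted p = 0.0518). It missed it with limma on the deposited score too (adjusted p = 0.104). Of the other named genes the sign changed for Foxo1 in generation 21 (0.0091), Pde3b in generation 21 (0.076), block 1 (0.12) and with marker scores (0.29), Prkag2 in generation 23 (-0.097), and Pak1 (-0.048), Inppl1 (-0.036) and Slc2a12 (0.036) in 1 library block each.

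The generation test gave 3 genes, and 0 in females alone (2 at an unadjusted p under 0.05), where 2.89% of all genes passed. It also gave 0 without generation 17, an alternative chosen after seeing the data, where 1.51% of all genes passed. In the other alternatives it gave 2 to 4. The sex difference in spread kept 1 gene under each alternative, with Slc2a1 (0.0012) and Tbc1d1 (-0.00010) changing sign near 0.

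Of the correlations 19 passed, and 5, 7, 11, 3 and 8 in the 5 blocks alone. Signs changed for Slc2a4 with Slc2a1 in block 2 (-0.0084) and block 3 (-0.026), Hk2 with Insr in block 1 (-0.013), Hk2 with Irs1 in block 4 (0.0053), Insr with Pik3r1 in block 4 (-0.047) and in males (-0.029), Akt2 with Tbc1d1 in block 4 (0.059), Tbc1d4 with Tbc1d1 in block 1 (0.0070), and Irs2 with Tbc1d1 with nothing taken out (-0.11). With list scores 59 pairs passed, 37 in males alone and 19, 16, 33, 19 and 24 in the blocks, and Tbc1d4 with glycolysis changed sign in block 2 (0.033). Fits in 1 sex, generation or block hold fewer animals, and the cause of these changes was not tested. No paired analysis was possible because animal numbers are unique to 1 sample each.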
